A study of Saccharomyces cerevisiae BY4741 with 24 samples.

Results

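The 10 genes described here serve the glyoxylate cycle, gluconeogenesis and the uptake of the acids that feed them in Saccharomyces cerevisiae. They were taken by name, as ICL1 (YER065C), MLS1 (YNL117W), MDH2 (YOL126C), CIT2 (YCR005C), PCK1 (YKR097W), FBP1 (YLR377C), SFC1 (YJR095W), IDP2 (YLR174W), JEN1 (YKL217W) and ADY2 (YCR010C). All 10 were found among the 5449 genes measured, each by 1 probe set. The rule takes genes by name, but the list of names was chosen with earlier results of these data known. All groups share the strain BY4741, a haploid of mating type a widely used in the laboratory. Cultures in rich YPD medium held either 2% glucose (the control) or 0.5% glucose (caloric restriction) and harvest followed inoculation by 12, 18, 24 or 48 h. For each of the 8 combinations there were 3 arrays, named as biological triplicates in the series design, so the study holds 24 arrays in all. The percentages are those of the starting medium, and the glucose left at each harvest is not part of the data used here.

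Yeast growing on ethanol or acetate has to build sugars from compounds of 2 carbons. The glyoxylate cycle makes this possible by bypassing the steps of the tricarboxylic acid (TCA) cycle that release carbon dioxide, and gluconeogenesis then leads from oxaloacetate to glucose phosphates. Glucose represses the genes of both routes, and the activators Cat8, Sip4 and Adr1 switch many of them on when glucose runs out, under the Snf1 kinase. JEN1 and ADY2 encode plasma membrane transporters for lactate and acetate, and the other 8 encode enzymes and a mitochondrial carrier.

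Levels are the deposited log2 values, which have the same distribution on every array, so a difference is relative to the other transcripts of an array. Differences are given as estimate ± standard error (SE) from 1 model over the 8 groups, with 3 arrays per group, and a gene was called where its adjusted p, computed over all 5449 genes, was under 0.05. Every member was above background on all 24 arrays, where background is 2.29, the level under which 95% of the values of Schizosaccharomyces pombe probe sets on these arrays lie, and the highest value on any array was 12.57. In strain checks MFA1, for the a-factor pheromone, read 6.75 to 10.07, and MET17 and URA3, which BY4741 lacks, stayed at background. LEU2, also deleted, read up to 2.72, and HIS3, of which the strain keeps a part, read 4.69 to 5.44. Of the markers of the other mating type STE3 read 3.20 to 6.0, above background on every array, MF(ALPHA)1 read 1.90 to 4.92 and MF(ALPHA)2 read 1.80 to 2.90. The 6 genes specific to the a mating type, used here only as strain markers, were all lower in 0.5% glucose at 12 h (median -2.24), 18 h (-0.88) and 48 h (-2.51). At 24 h 5 of them were lower (median of the 6, -0.71). All their arrays stayed above background, and their part in the results below was not tested. The 3 arrays of 0.5% glucose at 48 h stood apart, at 61.9 to 64.7 on a first principal component (58.2% of the variance) where the other 21 arrays lay between -22.0 and 13.2. A second scale was set by 12 bacterial spike-in probe sets, on which the median gene differed between glucose levels by 0.35 at 12 h and 0.16 at 18 h, then by 0.27 at 24 h and -0.41 at 48 h. From 12 h to 48 h in 0.5% glucose that median was -0.90. Where a direction of a member turns on the spike-in scale, that value is given beside it. In these cultures fewer cells with a transcript and less transcript per cell cannot be told apart.

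The 8 genes for enzymes and the carrier were lowest in one group and both plasma membrane transporters in another. In all 8 the lowest of the 8 group means was that of 0.5% glucose at 48 h, and the highest was a mean at 12 h. Of all genes 30.7% had their lowest mean in 0.5% glucose at 48 h and 34.6% had their highest at 12 h. JEN1 and ADY2 were highest in 0.5% glucose at 48 h, as 36.6% of all genes were, and lowest in 2% glucose at 24 h, as 7.6% were. On the spike-in scale all 10 members were highest in 0.5% glucose at 12 h, as 51.6% of all genes were. There the 8 remained lowest in 0.5% glucose at 48 h, now with 56.4% of all genes, and JEN1 and ADY2 in 2% glucose at 24 h, with 17.9%. The group means of FBP1 spanned 3.47 log2 units, the widest range among the 10, and those of CIT2 spanned 0.66, the narrowest, where the median gene spanned 1.11.

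**Figure D1:**
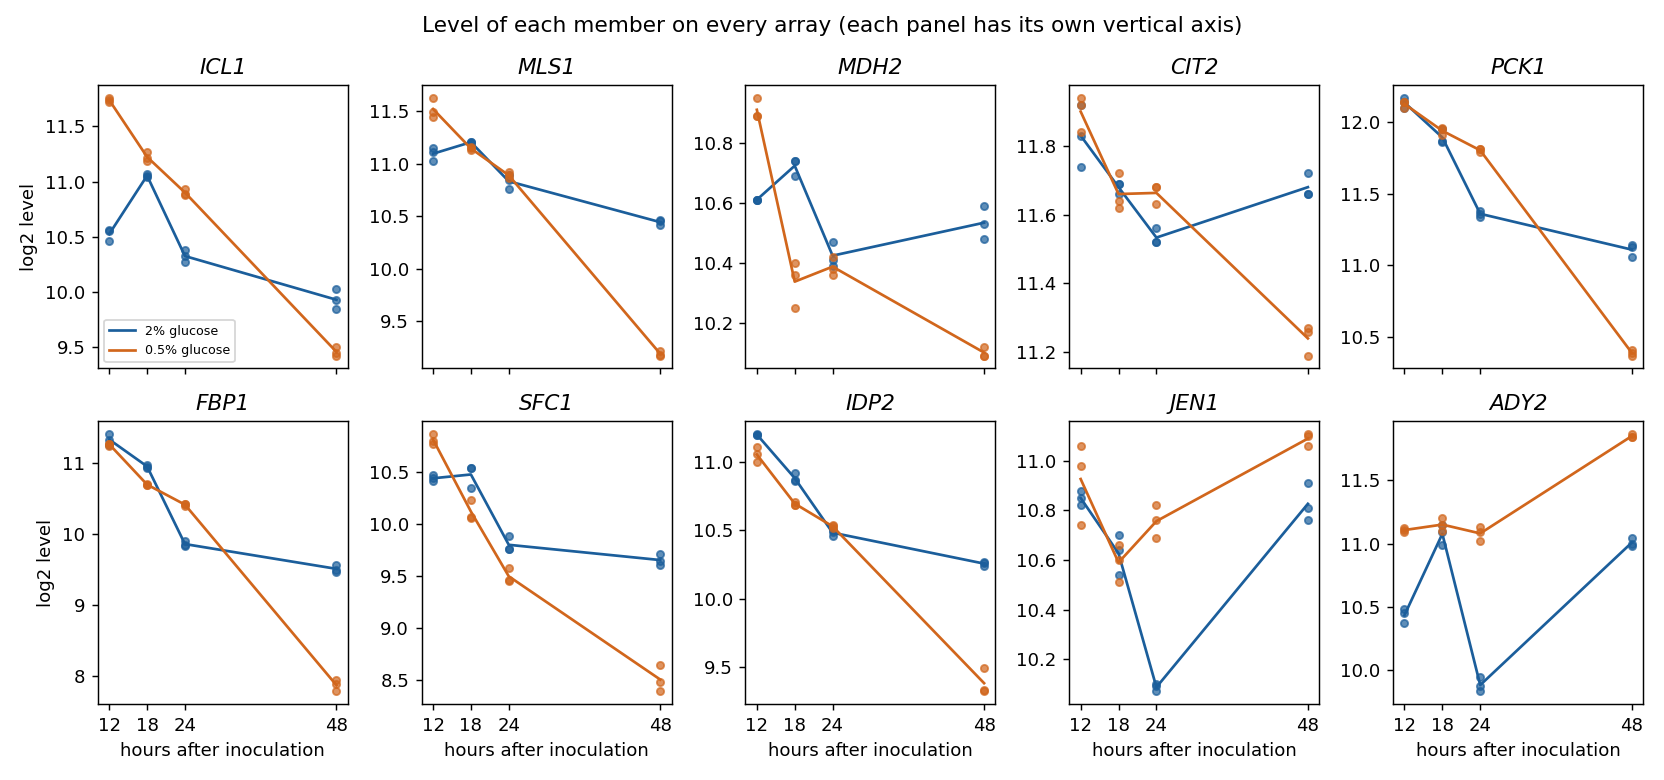
Each panel shows 1 gene, with the log2 level of every array as a point and the mean of the 3 arrays as a line, against hours after inoculation, in blue for 2% and orange for 0.5% glucose. In 0.5% glucose FBP1 ends near 7.87 at 48 h, below all other groups, while ADY2 ends at 11.85, above all other groups (on the spike-in scale ADY2 at 48 h was below its level at 12 h).

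ICL1 encodes isocitrate lyase, the first enzyme particular to the glyoxylate cycle, which splits isocitrate into glyoxylate and succinate. In 2% glucose it read 10.46, 10.56 and 10.55 at 12 h, then 11.04, 11.07 and 11.05 at 18 h. In 0.5% glucose it read 11.76, 11.72 and 11.74 at 12 h and 11.19, 11.21 and 11.27 at 18 h. The restricted cultures were thus at their highest level at the first harvest and the control cultures 1 harvest later, at 18 h. At 24 h the arrays read 10.38, 10.27 and 10.32 in 2% and 10.93, 10.88 and 10.89 in 0.5% glucose. At 48 h they read 10.02, 9.84 and 9.92 in 2% and 9.50, 9.44 and 9.42 in 0.5% glucose. No 2 of the 8 groups that neighbour each other in level overlapped. ICL1 was 2.32-fold higher in 0.5% glucose at 12 h (1.22 ± 0.05, adjusted p = 1.08e-15) and 1.39-fold lower at 48 h (-0.47 ± 0.05, adjusted p = 4.55e-09).

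MLS1 encodes malate synthase, which joins glyoxylate to acetyl-CoA and completes the bypass. At 12 h it read 11.15, 11.03 and 11.11 in 2% glucose and 11.63, 11.49 and 11.45 in 0.5% glucose, a difference of 0.43 ± 0.05. At 18 h and 24 h the glucose levels did not differ past the threshold, with -0.06 (95% interval -0.15 to 0.04, and 0.10 on the spike-in scale) and 0.06 (-0.04 to 0.15). At 48 h it read 10.45, 10.42 and 10.46 in 2% glucose and 9.18, 9.17 and 9.21 in 0.5% glucose, and was 2.39-fold lower there (-1.26 ± 0.05, adjusted p = 1.31e-16). In the order of its group means, 0.5% glucose at 18 h overlapped 2% glucose at 12 h, and the 24 h groups overlapped each other. The step of MLS1 from 12 h to 18 h differed between the glucose levels by -0.49 ± 0.06 and that of ICL1 by -1.05 ± 0.07.

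CIT2 encodes the peroxisomal citrate synthase, a known target of the retrograde pathway through which mitochondria signal to the nucleus. It moved least of the 10. Its arrays read 11.74, 11.83 and 11.92 in 2% and 11.84, 11.92 and 11.94 in 0.5% glucose at 12 h, and these groups overlapped (0.07, 95% interval -0.02 to 0.16). Neighbouring groups also overlapped from 2% glucose at 48 h through 2% at 18 h and 0.5% at 18 h to 0.5% at 24 h, all between 11.66 and 11.68 in mean. In 0.5% glucose at 48 h it read 11.27, 11.26 and 11.19, against 11.72, 11.66 and 11.66 in 2% glucose, a difference of -0.44 ± 0.04. The small difference at 24 h, 0.13 ± 0.04, passed the threshold (adjusted p = 0.0185) and did not without replicate 1 or 2 of 2% glucose or replicate 1 or 3 of 0.5% glucose, with adjusted p up to 0.0542.

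MDH2 encodes the cytosolic malate dehydrogenase, which makes oxaloacetate for gluconeogenesis. At 12 h it was at 10.61 on each of the 3 arrays of 2% glucose and at 10.95, 10.89 and 10.89 in 0.5% glucose. At 18 h the order was turned, with 10.74, 10.69 and 10.74 in 2% and 10.25, 10.40 and 10.36 in 0.5% glucose. The differences were 0.30 ± 0.04 at 12 h and -0.39 ± 0.04 at 18 h, and they differed from each other by -0.69 ± 0.06 (adjusted p = 3.82e-09). At 24 h the groups overlapped (-0.04, 95% interval -0.13 to 0.05, and 0.23 on the spike-in scale). At 48 h MDH2 read 10.59, 10.48 and 10.53 in 2% and 10.09, 10.12 and 10.09 in 0.5% glucose, a difference of -0.43 ± 0.04.

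SFC1 encodes the mitochondrial carrier that exchanges succinate, the second product of isocitrate lyase, for fumarate. Like MDH2 it was higher in 0.5% glucose at 12 h (0.37 ± 0.06) and lower at 18 h (-0.36 ± 0.06). In 0.5% glucose it went from 10.77, 10.87 and 10.80 at 12 h through 10.07, 10.23 and 10.06 at 18 h and 9.45, 9.58 and 9.46 at 24 h to 8.48, 8.64 and 8.39 at 48 h. In 2% glucose it read 10.41, 10.44 and 10.47 at 12 h, 10.54, 10.54 and 10.35 at 18 h, 9.88, 9.76 and 9.76 at 24 h and 9.71, 9.64 and 9.61 at 48 h. The fall in 0.5% glucose covered every interval, while in 2% glucose only the step from 18 h to 24 h passed the threshold (-0.68 ± 0.06). The difference between the glucose levels was larger at 48 h than at 24 h by -0.85 ± 0.09 (adjusted p = 3.30e-08).

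IDP2 encodes the cytosolic isocitrate dehydrogenase, a source of NADPH in cells that respire. It was the only member lower in 0.5% glucose at 12 h past the threshold, with 11.21, 11.20 and 11.20 in 2% and 11, 11.06 and 11.11 in 0.5% glucose (-0.15 ± 0.04, adjusted p = 0.00414, and 0.26 on the spike-in scale). Its levels fell at every step in both media. At 48 h it read 10.27, 10.24 and 10.26 in 2% and 9.32, 9.33 and 9.49 in 0.5% glucose, a difference of -0.88 ± 0.04.

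PCK1 encodes phosphoenolpyruvate carboxykinase, the enzyme that commits oxaloacetate to gluconeogenesis. At 12 h it read 12.17, 12.14 and 12.10 in 2% and 12.14, 12.14 and 12.10 in 0.5% glucose, close to the top of the measured range, and the groups overlapped (-0.01, 95% interval -0.09 to 0.07, and 0.39 on the spike-in scale). They overlapped at 18 h also. At 24 h it read 11.38, 11.36 and 11.34 in 2% and 11.79, 11.81 and 11.81 in 0.5% glucose, higher by 0.44 ± 0.04. At 48 h the order was reversed, with 11.14, 11.06 and 11.13 in 2% and 10.37, 10.41 and 10.39 in 0.5% glucose, lower by 1.65-fold (-0.72 ± 0.04, adjusted p = 6.99e-14).

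FBP1 encodes fructose-1,6-bisphosphatase, which acts late in gluconeogenesis, ahead of glucose 6-phosphate. At 12 h it read 11.42, 11.33 and 11.26 in 2% and 11.25, 11.28 and 11.28 in 0.5% glucose (-0.06, 95% interval -0.16 to 0.03, and 0.34 on the spike-in scale). At 24 h it read 9.90, 9.85 and 9.83 in 2% and 10.43, 10.42 and 10.40 in 0.5% glucose. At 48 h it read 9.56, 9.47 and 9.50 in 2% and 7.78, 7.94 and 7.88 in 0.5% glucose. FBP1 thus went from 1.47-fold higher in 0.5% glucose at 24 h (0.55 ± 0.04) to 3.12-fold lower at 48 h (-1.64 ± 0.04), and the change in the difference, -2.20 ± 0.06, was the largest among the 10 (adjusted p = 1.34e-17). Within 0.5% glucose it was 10.6-fold lower at 48 h than at 12 h (-3.40 ± 0.04), the 43rd lowest of 5449 genes in that comparison.

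JEN1 encodes a proton-coupled transporter that imports lactate and pyruvate. In 2% glucose its arrays read 10.85, 10.82 and 10.88 at 12 h, 10.64, 10.54 and 10.70 at 18 h, 10.09, 10.10 and 10.07 at 24 h and 10.81, 10.76 and 10.91 at 48 h. In 0.5% glucose they read 10.74, 10.98 and 11.06 at 12 h, 10.51, 10.60 and 10.66 at 18 h, 10.69, 10.82 and 10.76 at 24 h and 11.11, 11.10 and 11.06 at 48 h. Only the 24 h group of 2% glucose stood clear of its neighbour in level, since all other neighbours overlapped. The glucose levels differed at 24 h (0.67 ± 0.06, adjusted p = 9.37e-09) and at 48 h (0.26 ± 0.06, adjusted p = 6.85e-04), and on the spike-in scale the second difference was -0.23. Replicate 1 of 0.5% glucose at 12 h was lower than the other replicates. Without it the rise from 12 h to 48 h in 0.5% glucose, 0.17 ± 0.06 (-0.81 on the spike-in scale), was 0.07 (adjusted p = 0.225). Nor did that rise pass without replicate 1 at 48 h (adjusted p = 0.0519).

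ADY2 encodes an acetate transporter of the plasma membrane. In 2% glucose it read 10.37, 10.48 and 10.45 at 12 h, 11.15, 11.09 and 10.99 at 18 h, 9.94, 9.83 and 9.87 at 24 h and 10.98, 11.04 and 11 at 48 h, so the control cultures alternated between lower and higher levels. In 0.5% glucose it stayed between 11.02 and 11.20 on the 9 arrays of 12 h to 24 h and then read 11.87, 11.84 and 11.84 at 48 h. ADY2 was higher in 0.5% glucose at 12 h (0.68 ± 0.05), at 24 h (1.20 ± 0.05, 2.30-fold) and at 48 h (0.84 ± 0.05), and at 18 h the groups overlapped (0.07, 95% interval -0.02 to 0.17). These 3 differences kept their sign on the spike-in scale, at 1.08, 1.47 and 0.35. With the spike-ins of each array in place of group means, the value at 48 h did not pass (adjusted p = 0.158).

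The first question of the design is how the glucose levels differ at each harvest. At 12 h 5 members were higher in 0.5% glucose (ICL1, ADY2, MLS1, SFC1 and MDH2), 1 was lower (IDP2) and 4 did not pass. The background of this comparison was 32.2% of all genes higher, 5.58% by at least 2-fold as ICL1 was, and 41.2% lower, and the members' median was 0.19 against -0.05 for all genes. On the spike-in scale all 10 were higher, but the median of all genes was itself 0.35 there, so that count alone says little about the members. With the spike-ins of each array only 5 passed, all of them higher. At 18 h ICL1 was higher by 0.17 ± 0.05 and MDH2, SFC1, FBP1 and IDP2 were lower, where 25.5% of all genes were higher and 24.8% lower. The 18 h values were small, between -0.39 and 0.17. With the spike-ins as group means 4 members were higher and 2 lower, beside a median of 0.16 for all genes. None passed with the spike-ins of each array.

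At 24 h 6 members were higher in 0.5% glucose, in the order ADY2, JEN1, ICL1, FBP1, PCK1 and CIT2, and SFC1 was lower (-0.30 ± 0.06, and -0.04 on the spike-in scale). Of all genes 31.6% were higher and 31.4% lower at 24 h, and 1.49% were higher by at least 2-fold, as ADY2 was. At 48 h all 10 differed past the threshold, 8 lower and 2 higher, in a comparison that called 37.8% of genes lower and 46.0% higher. FBP1, MLS1 and SFC1 were lower by at least 2-fold, as were 10.6% of all genes. The members' median at 48 h was -0.59 against 0.08 for all genes. The share of called genes was high at 48 h, 83.8%, so a call alone says little about a member there.

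**Figure D2:**
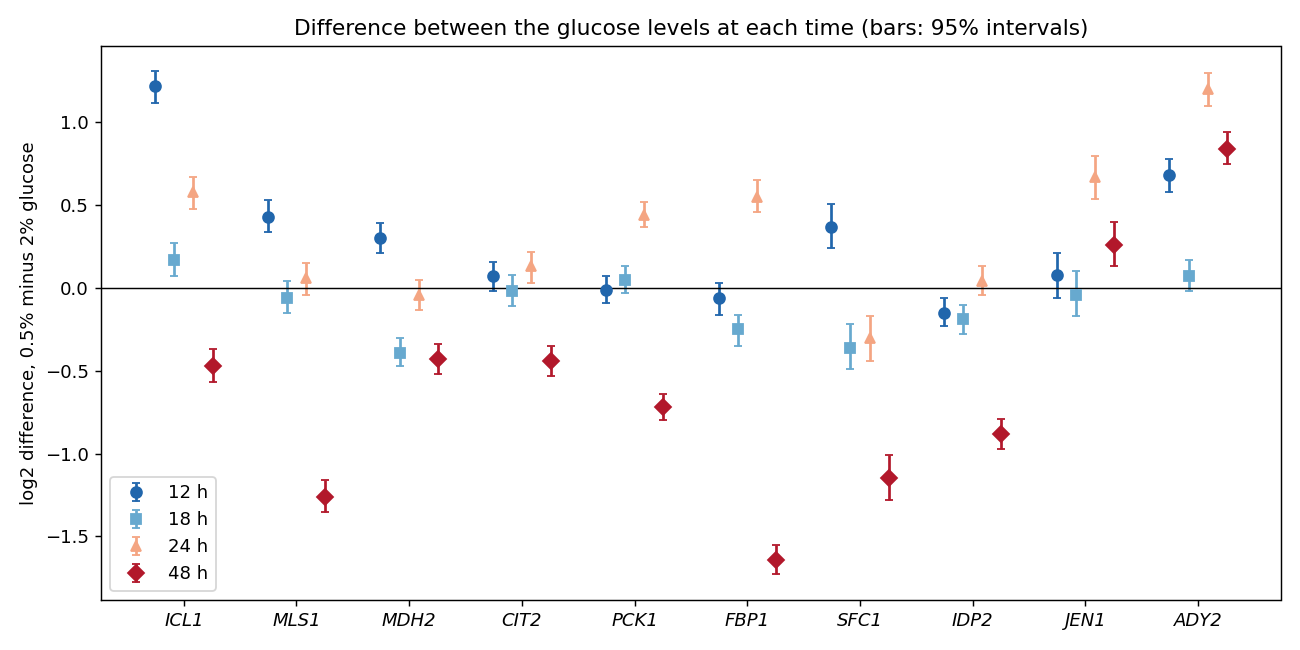
The log2 difference of 0.5% minus 2% glucose is plotted for each member at 12, 18, 24 and 48 h, with 95% intervals. At 48 h 8 members lie below 0, down to -1.64 for FBP1, and JEN1 and ADY2 lie above it (JEN1 at -0.23 on the spike-in scale).

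The difference between the glucose levels was not the same at all times for any member, with the F test over the 4 times passing for 10 of 10 and for 91.7% of all genes. From 24 h to 48 h the difference moved down for all 10, from -0.35 ± 0.07 for ADY2 to -2.20 ± 0.06 for FBP1, where 35.2% of genes moved down past the threshold. From 18 h to 24 h it moved up for 7 of 10 and down for none, led by ADY2 (1.12 ± 0.07), FBP1 (0.81 ± 0.06) and JEN1 (0.70 ± 0.09), where 13.7% of genes moved up and 14.1% down. These step comparisons were added after the values had been seen, and each shares its arrays with the next.

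The upward move at 24 h is by definition the step in 0.5% glucose minus the step in 2% glucose, so the control step is part of it. From 18 h to 24 h in 2% glucose all 10 members fell, from -0.14 ± 0.04 for CIT2 to -1.20 ± 0.05 for ADY2, and in no member did the arrays of both times overlap. In that comparison 24.5% of all genes fell, and 59.8% had groups that did not overlap. ADY2 (2.29-fold) and FBP1 (2.13-fold) were among the 25 genes, 0.459%, that fell by at least 2-fold, as the 15th and 20th lowest of all genes. ICL1 was the 68th lowest, at -0.73 ± 0.05. In 0.5% glucose over the same interval 6 members fell, 3 did not pass and JEN1 rose by 0.16 (0.01 on the spike-in scale), where 24.1% of genes fell and 24.6% rose. The largest of these falls was that of SFC1, -0.62. The rise of JEN1 did not pass without replicate 1 or 2 of the 18 h arrays or replicate 2 or 3 of the 24 h arrays (adjusted p up to 0.16).

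Between 12 h and 18 h the media moved apart in another way. In 0.5% glucose 9 of 10 members fell, with ADY2 at 0.04 (-0.15 on the spike-in scale) as the exception and a median of -0.37, where 30.2% of genes fell. In 2% glucose 4 rose and 5 fell, led by ADY2 (0.65) and ICL1 (0.53) on one side and FBP1 (-0.38) and IDP2 (-0.32) on the other, where 30.5% of genes rose and 37.9% fell. The small rises of MLS1 and MDH2, both 0.11, did not pass without certain single arrays. For MLS1 these were replicates 2 and 3 of 12 h and all 3 of 18 h (adjusted p up to 0.177), and for MDH2 replicate 2 of 12 h and replicates 1 and 3 of 18 h (up to 0.0743).

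From 24 h to 48 h the steps were large in restricted cultures. In 0.5% glucose 8 members fell and JEN1 (0.33) and ADY2 (0.77) rose, of which JEN1 was at -0.30 on the spike-in scale. Of all genes 39.4% fell and 45.8% rose. The falls ran from -0.28 for MDH2 to -2.55 for FBP1, and 5 of them were at least 2-fold, as for 13.0% of genes. In 2% glucose 5 fell by no more than 0.40 and 4 rose, ADY2 by 1.13, JEN1 by 0.74, CIT2 by 0.14 and MDH2 by 0.11, where 31.5% of genes rose and 30.4% fell. SFC1, at -0.14, did not pass. The rise of MDH2 did not pass without replicate 2 or 3 of the 24 h arrays or replicate 1 or 3 of the 48 h arrays (adjusted p up to 0.162).

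Over the whole course from 12 h to 48 h, 7 members fell in 2% glucose, with FBP1 (-1.83 ± 0.04) and PCK1 (-1.03 ± 0.04) by at least 2-fold, and ADY2 rose by 0.58 ± 0.05. Of all genes 41.4% fell, 6.04% by at least 2-fold, and 38.8% rose in that comparison. In 0.5% glucose 8 fell, 6 of them by at least 2-fold, with MLS1 at -2.34 ± 0.05, SFC1 at -2.31 ± 0.06, ICL1 at -2.28 ± 0.05, PCK1 at -1.74 ± 0.04 and IDP2 at -1.68 ± 0.04 after FBP1. The background there was 41.1% of genes lower, 17.6% lower by at least 2-fold and 46.8% higher. JEN1 and ADY2 were higher, at 0.17 and 0.74, against -0.81 and -0.23 on the spike-in scale. The difference between the glucose levels at 48 h was below that at 12 h in 8 members, by 0.51 for CIT2 up to 1.69 for ICL1 and MLS1, where 36.1% of genes moved down and 43.8% up. It was above it for ADY2 (0.17 ± 0.07, adjusted p = 0.026, and -0.73 on the spike-in scale), and for JEN1 it did not pass (0.19 ± 0.09, adjusted p = 0.0617), with -0.70 on the spike-in scale. The value of ADY2 did not pass without replicate 2 or 3 of 2% glucose at 12 h or replicate 1 of 2% glucose at 48 h (adjusted p up to 0.0689).

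Over the 8 group means, the 28 pairs among the 8 enzyme and carrier genes had a Pearson correlation of 0.68 (ICL1 and MDH2) to 0.99 (PCK1 and FBP1). JEN1 and ADY2 correlated with each other at 0.78. Their 16 correlations with the 8 others ran from -0.52 to -0.01, and JEN1 was at -0.01 with both MDH2 and CIT2. These are descriptions over 8 points that share their arrays and the low point of 0.5% glucose at 48 h.

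**Figure D3:**
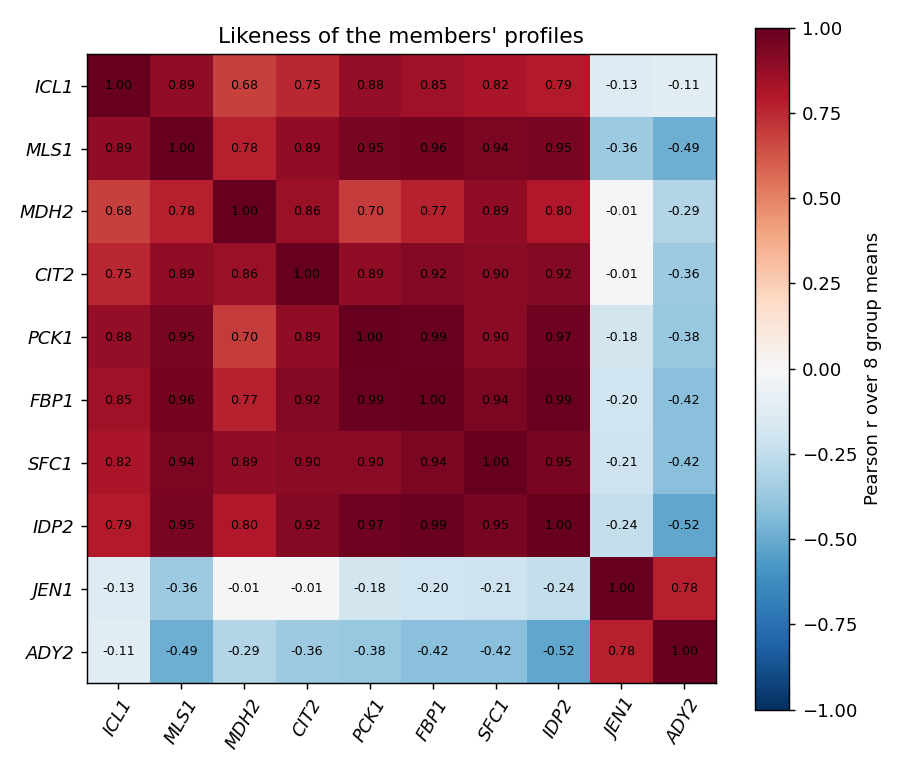
Each cell gives the Pearson correlation of a pair of members over the 8 group means, from blue at -1 to red at 1. The enzyme and carrier genes form a block of positive values, and JEN1 and ADY2 correlate positively only with each other, at 0.78.

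Among the 5386 other genes above background, the profile most like that of PCK1 was BNA7 (r = 0.997 over 8 groups), which also led for FBP1 (0.987). MLS1 was most like PRS4 (0.994) and CDC10 (0.993), ICL1 most like PRO2 (0.983), IDP2 most like LAP3 (0.990), SFC1 most like BUD9 (0.985), CIT2 most like IAH1 (0.978) and MDH2 most like MCM7 (0.902). Like most of the other members, each transporter had its own nearest genes. ADY2 was most like CTA1 (0.963), for the peroxisomal catalase, then FAA4 (0.957) and PEX11 (0.955), and JEN1 was most like ECI1 (0.935), YIG1 (0.928) and DCI1 (0.913). The mean profile of the 10 members was most like HMX1 (0.964) and LSC1 (0.960). These correlations were picked as the highest among 5386 genes over only 8 group means, and none was tested.

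Several members have isozymes or paralogs elsewhere in the cell, of which 11 of the 12 listed were measured. Malate dehydrogenase has a mitochondrial form (MDH1) and a peroxisomal form (MDH3) beside MDH2. From 12 h to 48 h in 0.5% glucose MDH1 fell by 1.87 and MDH2 by 0.81, while MDH3 rose by 0.47 ± 0.06 (-0.50 on the spike-in scale). For citrate synthase the mitochondrial form CIT1 fell by 1.5, more than the peroxisomal CIT2 with 0.66, and CIT3, a second mitochondrial form, fell by 0.94. In 2% glucose CIT3 rose by 1.26 ± 0.06 over the same hours, while CIT2 fell by 0.15. The NADP-dependent isocitrate dehydrogenases also moved by unequal amounts in 0.5% glucose, with IDP2 at -1.68, the mitochondrial IDP1 at -0.73 and the peroxisomal IDP3 at 0.30 (-0.68 on the spike-in scale).

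ICL2, the mitochondrial relative of ICL1 that acts on methylisocitrate, rose by 0.68 in 2% glucose from 12 h to 48 h where ICL1 fell by 0.60, and in 0.5% glucose it fell by 0.74 against 2.28 for ICL1. DAL7, a malate synthase of allantoin use, was at 0.49 in 0.5% glucose (-0.48 on the spike-in scale) where MLS1 was at -2.34. ADY2 has relatives in ATO2 and ATO3. ATO2 had group means of 10.68, 10.74 and 10.88 in 0.5% glucose at 12, 18 and 24 h and 7.99 at 48 h. It was lower in 0.5% than in 2% glucose at 48 h by -3.36 ± 0.05, where ADY2 was higher by 0.84 ± 0.05 and ATO3 by 0.77 ± 0.06 (0.35 and 0.28 on the spike-in scale). Of the 11 isozymes and paralogs 3 were higher and 7 lower in 0.5% glucose at 48 h, with a median of -0.82, against 5 higher and 3 lower at 12 h with a median of 0.05. Of all genes 46.0% were higher and 37.8% lower at 48 h, and 32.2% and 41.2% at 12 h. On the spike-in scale 1 isozyme lay above 0 and 10 below at 48 h, and 10 above and 1 below at 12 h. The median of all genes on that scale was -0.41 at 48 h and 0.35 at 12 h, so these counts go the way of all genes.

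**Figure D4:**
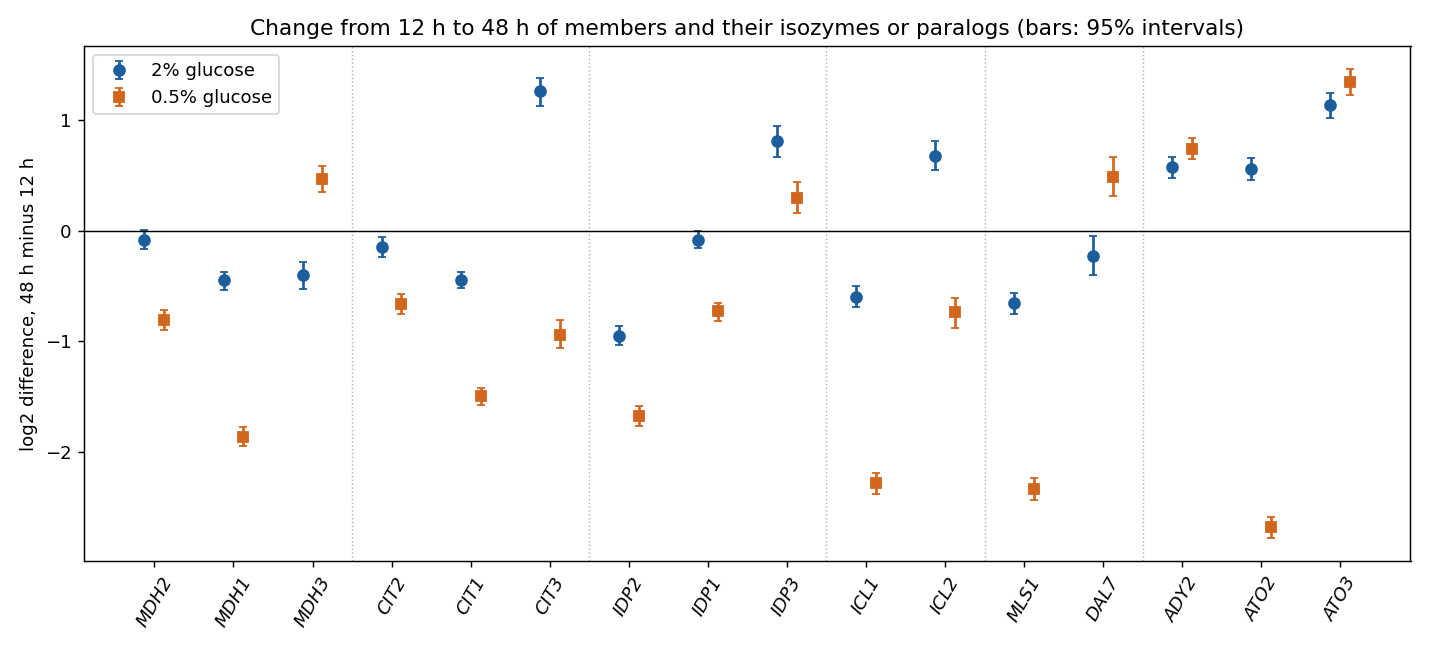
The change from 12 h to 48 h (log2, with 95% intervals) is shown for members and their isozymes or paralogs, grouped by dotted lines, in blue circles for 2% and orange squares for 0.5% glucose. In 0.5% glucose MDH3, IDP3, DAL7 and ADY2 lie above 0 (all 4 below 0 on the spike-in scale), ATO3 lies at 1.35 and ATO2 at -2.68.

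The regulators of these genes did not share 1 direction. CAT8, for the zinc cluster activator of gluconeogenic genes, was lower in 0.5% glucose at 12 h (-0.66 ± 0.06) and higher at 48 h (0.86 ± 0.06), with group means of 8.65, 8.85, 8.89 and 9.81 in 0.5% and 9.31, 8.82, 8.61 and 8.96 in 2% glucose. SIP4, for the related activator that Cat8 induces, was higher at 48 h (0.92 ± 0.09). The signs of these values for CAT8 and SIP4 held on the spike-in scale. CAT8 and SIP4 were thus higher at 48 h in the group where 8 of the 10 members were lowest. HAP4, for the activator of respiratory genes, was lower at 12 h and 48 h (-0.62 ± 0.07 and -1.98 ± 0.07), and ERT1 was lower by -1.06 ± 0.09 at 12 h. Of 11 activators 5 were higher and 4 lower at 48 h, and 1 was higher and 5 lower at 12 h. The medians, 0.11 and -0.10, became -0.38 and 0.30 on the spike-in scale, where the median of all genes was -0.41 and 0.35. The shares at 48 h are near those of all genes, 46.0% higher and 37.8% lower, and at 12 h all genes stood at 32.2% and 41.2%.

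Among 5 repressors HXK2, for the hexokinase that also takes part in glucose repression, differed most, with 1.25 ± 0.07 at 12 h and -3.91 ± 0.07 at 48 h. REG1, for the subunit that directs protein phosphatase 1 against Snf1, was higher at 48 h (1.0 ± 0.10), and MIG1, for the main DNA-binding repressor of glucose repression, was lower at 12 h (-0.73 ± 0.06). Of these 5 genes 1 was higher and 3 lower at 12 h, and 2 were higher and 3 lower at 48 h. The spike-in scale put 1 above and 4 below 0 at 48 h, where the median of all genes was -0.41. The shares of all genes were 32.2% higher and 41.2% lower at 12 h, and 46.0% and 37.8% at 48 h. The GID ubiquitin ligase marks Fbp1, Pck1, Mdh2 and Icl1 proteins for breakdown when glucose returns. Of its 8 genes with the partner UBC8, 7 were higher and 1 lower in 0.5% glucose at 48 h, and none was higher and 6 were lower at 12 h, beside those same shares of all genes. Their median was 0.38 at 48 h and -0.33 at 12 h, and -0.11 and 0.07 on the spike-in scale. Both spike-in values are smaller in size than the SE of the spike-in shift, 0.16 at 48 h and 0.11 at 12 h, so no direction is read from them. The median of all genes on that scale was -0.41 at 48 h and 0.35 at 12 h. VID24, for the subunit that recognizes the substrates, was the exception at 48 h (-0.42 ± 0.07), named after its value was seen, and was at -1.20 ± 0.07 at 12 h.

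**Figure D5:**
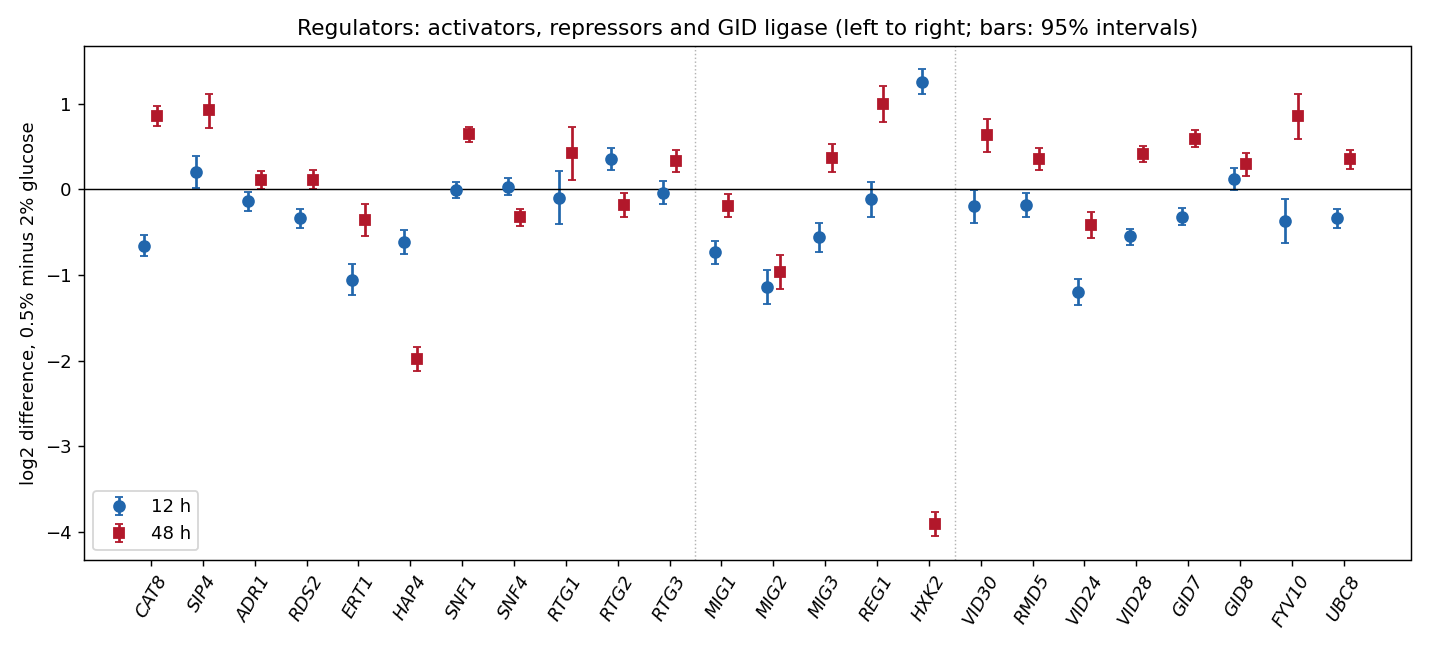
The log2 difference of 0.5% minus 2% glucose, with 95% intervals, is shown at 12 h (blue) and 48 h (red) for activators, repressors and GID ligase genes from left to right. HXK2 moves from 1.25 to -3.91, and CAT8 from -0.66 to 0.86. On the spike-in scale 5 of the 8 GID genes lie below 0 at 48 h, where the median of all genes was -0.41.

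In the steps that feed the pathway, 6 of 10 genes of 2-carbon entry were higher and 1 lower in 0.5% glucose at 12 h, and 3 were higher and 5 lower at 48 h. On the spike-in scale 10 lay above 0 at 12 h and 1 at 48 h, where the median of all genes was 0.35 and -0.41. On the deposited values all genes stood at 32.2% higher and 41.2% lower at 12 h and 46.0% and 37.8% at 48 h. These are also the shares to set beside the glycolytic and carrier calls that follow. Counts on the spike-in scale are to be set beside the medians of all genes on that scale. The highest of the 2-carbon genes at 12 h was ADH2, 1.67 ± 0.05, whose enzyme turns ethanol into acetaldehyde. The acetyl-CoA synthetases parted, with ACS1 at 0.64 ± 0.04 and ACS2 at -2.91 ± 0.07 at 48 h, and ACH1, for an acetyl-CoA hydrolase, was at -2.78 ± 0.04. ALD6, for the cytosolic aldehyde dehydrogenase that makes acetate, was at -1.87 ± 0.05. Of 9 genes of glycolytic steps around fructose phosphates and pyruvate 7 were lower and 2 higher at 48 h, with a median of -0.63, and on the spike-in scale 8 lay below 0. PYC2, for a pyruvate carboxylase, was at -1.70 ± 0.05. PFK2, for a subunit of phosphofructokinase, which runs opposite to Fbp1, was at -1.02 ± 0.06, and FBP26, for fructose-2,6-bisphosphatase, was at 1.03 ± 0.06. At 12 h 4 of these 9 were higher and 5 lower, and their median, -0.24, became 0.16 on the spike-in scale. Of the 6 mitochondrial carriers related to SFC1, 2 were higher and 4 lower at 48 h, led by ODC1 at -2.38 ± 0.05, an oxodicarboxylate carrier, and at 12 h 3 were higher and 1 lower. On the spike-in scale 1 carrier lay above 0 at 48 h and all 6 at 12 h.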

How the data were processed

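The deposited log2 values of 24 Affymetrix Yeast Genome 2.0 arrays were used, and the authors had quantile normalized them, as inferred from sorted arrays that differ by at most 0.0095. The base of the logarithm was inferred from the range of 0.60 to 12.57, and every array had a median of 3.65. The submitters' processing notes name Partek, without version or role, and for background correction and probe summarization the method is not given in the sources used here. Of 10928 probe sets, 5498 had 1 Saccharomyces cerevisiae gene and gave 5449 genes, with the probe set of highest mean for the 47 genes with several. A model of 8 group means was fitted in limma (3.58.1, under R 4.3.3) with eBayes, p-values were adjusted by Benjamini-Hochberg per comparison, and the fit was tested on simulated data. Figures used matplotlib 3.10.9. Precision is limited by the number of arrays, with a median SD of 0.08 within groups.

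The members and lists were chosen with earlier results of these data known. All members are named, and of each list at most 4 genes per glucose comparison, from those with the largest moderated statistics, or any isozyme or activator. The replicate numbers met the rule for pairs, a residual correlation above 0.1 in every pair, at 12 h (0.212, 0.138 and 0.109), 18 h and 24 h but not at 48 h, so they entered only as an alternative. The alternatives were other scalings, filters, variance models, weights, array subsets and leaving out each array. Sequences were not used here.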

Additional observations from a re-analysis of the deposited data

Results flagged for a closer look

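For all 10 members the difference between the glucose levels varied with time, by limma's F test over the 4 harvests, which passed for 91.7% of all genes. The F statistic was 428.57 for FBP1, 253.87 for MLS1, 230.06 for ICL1 and 168.19 for PCK1. It was 100.98 for ADY2, 92.26 for SFC1, 90.01 for IDP2 and 65.53 for MDH2. The lowest were 32.75 for CIT2 and 23.43 for JEN1 (adjusted p = 1.22e-06). FBP1, PCK1 and ICL1 were higher in 0.5% glucose at 24 h and lower at 48 h, and ADY2 was higher at both. Groups of 3 arrays are too small for a test of single outlying arrays.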

How the results depend on the processing

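Only the spike-in scale reversed directions. With group means its calls leave out the error of the spike-in shift. At 12 h the shift was -0.40 with an SE of 0.11, and at 18 h -0.16 with an SE of 0.26. At 24 h it was -0.27 with an SE of 0.23, and at 48 h 0.49 with an SE of 0.16. With the spike-ins as group means, 10 members were called at 12 h, all higher, against 6 before, of which 5 were higher. PCK1 was at 0.39, FBP1 at 0.34 and IDP2 at 0.26, where the median of all genes was 0.35. For the move of the glucose difference from 12 h to 18 h, 10 against 6 passed, with PCK1 at -0.18. The share of all genes called in that move is not given here, so its counts are not read as a result about the members. CIT2 was at 0.14 at 18 h, MDH2 at 0.23 at 24 h and JEN1 at -0.23 at 48 h. In 0.5% glucose ADY2 was at -0.15 from 12 h to 18 h and -0.23 from 12 h to 48 h, MDH2 at -0.10 from 18 h to 24 h, and JEN1 at -0.30 from 24 h to 48 h and -0.81 from 12 h to 48 h. The glucose difference at 48 h minus that at 12 h was -0.70 for JEN1 and -0.73 for ADY2. With the spike-ins of each array, chosen after seeing the data, IDP2 at 12 h (0.26, adjusted p = 0.362) and JEN1 at 48 h (-0.23, adjusted p = 0.388) turned without passing. In that setting 5 members passed at 12 h, against 6 on the deposited values, and 0 at 18 h, against 5. At 24 h 5 passed, against 7, and at 48 h 8, against 10. The cause was not tested.

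Leaving out single arrays gave 6 to 7 members called at 12 h, 5 at 18 h, 6 to 7 at 24 h and 10 at 48 h, and 7 to 9 for 12 h to 18 h in 2% glucose. The F test without the 48 h arrays, chosen after seeing the data, called 9 of 10 members. The share of all genes called in that test is not given here, so the count is not read as a result about the members. With a replicate block SFC1 from 24 h to 48 h in 2% glucose (adjusted p = 0.0326) and the move of JEN1 from 12 h to 48 h (adjusted p = 0.0445) passed, where the numbers did not meet the rule for pairs, and it changed no other call. SFC1 also passed there with array weights (0.0349), a variance trend (0.0403) and the compared arrays alone (0.0332), and JEN1 with a variance trend (0.0382) and without either of 2 single arrays (0.0325 and 0.0121). Array weights raised the members called at 12 h from 6 to 8. Centring on medians, leaving out dim genes and averaging probe sets changed no call of a member, and quantile normalization again ended that of CIT2 at 24 h (adjusted p = 0.0872). With 3 arrays per group, p-values measure only the spread between these cultures.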
